A study of Ovis aries and Mus musculus with 10 samples.

Results

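The miR-26 family was followed through its mature forms on the array, miR-26a and miR-26b, in mammary gland of sheep and mouse. They were chosen as the probes whose gene name in the scanner files was exactly mmu-miR-26a or mmu-miR-26b and that were not control spots, which gave 2 of the 567 mouse miRNAs on the array. The study took mammary gland from ewes and from CD1 mice, an outbred strain, and hybridised total RNA to 10 single-colour Agilent miRNA arrays, 1 array for each stage and day. Sheep were sampled on day 15 of the cycle, on days 14, 64 and 125 of gestation and on day 60 of lactation. Mice were sampled as virgins, on days 10 and 17 of gestation and on days 2 and 10 of lactation. The labels name no treatment and do not say whether an array holds RNA from 1 animal or from a pool. No stage and day has a replicate, so the spread below is the spread between arrays of different days.

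miR-26a and miR-26b are close relatives that share a seed, the short stretch at the start of a miRNA that pairs with target messages, and are therefore predicted to bind largely the same targets. A known target is EZH2, the methyltransferase of a Polycomb complex, and the family is known for restraining the cell cycle and for its part in the differentiation of fat cells, the main cells of the mouse mammary stroma before pregnancy. In the sheep gene table of RefSeq (assembly ARS-UI_Ramb_v3.0), the miR-26a gene lies inside CTDSP2 and the miR-26b gene inside CTDSP1, a pair of genes for small phosphatases of the RNA polymerase II tail. The mature miR-26a is also made from another locus in mammals, and an array of mature miRNAs does not separate the loci.

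Each member was measured by 2 probes with 10 spots each. The scanner files place the targets of the miR-26a probes on mouse chromosome 10 (build mm9), from 126432605 to 126432620 for the longer target of 16 bases and from 126432606 to 126432620 for the shorter one of 15. The targets of the miR-26b probes lie on mouse chromosome 1, from 74440899 to 74440918 for the longer target of 20 bases and from 74440900 to 74440918 for the shorter one of 19. The files name no exon or intron at these positions. All 400 member spots on the 10 arrays were well above background and 0 were saturated. Of these, 17 were outlier spots by the scanner software and were left out, and the coefficient of variation between the spots of a probe was 0.963 to 4.47% for miR-26a and 0.741 to 8.35% for miR-26b. The passenger strand miR-26b*, the partner strand usually degraded, was detected on 0 of 10 arrays, with 0 of 200 spots over 4 probes well above background.

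Signal differed between arrays before scaling. The 75th percentile over the 94 miRNAs detected on all 10 arrays ran from 246 on mouse lactation day 10 to 1998 in the sheep cycle, in arbitrary intensity units, and each array was divided by its own percentile. A scaled level of 1 (log2 level of 0) is therefore the 75th percentile of that array. The tissue label was checked with miRNAs of the miR-200 family, which mark epithelium: all 5 were detected on all 10 arrays. Their summed scaled level was 4.82, 4.28, 2.92, 11.4 and 9.95 on the sheep arrays and 1.68, 2.73, 6.04, 10.6 and 14.1 on the mouse arrays, each in stage order. The array of the sheep in cycle carries no tissue entry among its characteristics, but its source is given as mammary gland. Mouse virgin and mouse gestation day 10 were on slide 2 and the other 8 arrays were on slide 1. The probes were designed for mouse miRNAs, and their match to the sheep sequences was not examined here.

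In sheep, miR-26a was highest at gestation day 64 under every scaling tried and, after scaling to the percentile, lowest at day 125. Its scaled level was 2.51 in the cycle, 3.34 at gestation day 14, 6.28 at day 64, 1.76 at day 125 and 2.22 in lactation. Gestation day 64 was also the highest of all 10 arrays, and the sheep levels did not overlap those in mouse. On the log2 scale the steps were 0.41 ± 0.01 from cycle to day 14, 0.91 ± 0.01 to day 64, -1.84 ± 0.01 to day 125 (3.57-fold lower) and 0.34 ± 0.01 to lactation, where the error is the standard error over spots and covers the array only. Each step rests on 1 array on either side and has no test. The step from day 64 to day 125 was -2.57 without scaling and -0.63 in the authors' value table, where the lowest sheep array was gestation day 14 (log2 value 11.11, against 11.44 at day 125). After quantile normalization day 125 and lactation tied at 0.77. In signal, miR-26a ranked 6 of 567 miRNAs in the cycle, 4 at gestation day 14, 2 at day 64, and 12 both at day 125 and in lactation. Probes of different miRNAs differ in brightness, so a rank is read only across arrays and not as an abundance against other miRNAs.

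In mouse, miR-26a stayed within a narrow band. Its scaled level was 1.04 in virgin mice, 0.980 at gestation day 10, 1.18 at gestation day 17, 1.05 at lactation day 2 and 1.14 at lactation day 10. No mouse array departed far from the others, and the rank of miR-26a in signal stayed between 20 and 27. The range over the 5 mouse arrays was 0.27 on the log2 scale, and only 1 of the 94 miRNAs detected on all arrays had a smaller one, against a median of 1.12. In sheep, the range was 1.84, and 62 of the 94 had a smaller one, against a median of 1.32. The narrow mouse band holds relative to a percentile close to miR-26a's own level: without scaling its mouse range was 1.99, from a signal of 279 at lactation day 10 to 1106 at gestation day 17, and in the authors' value table it was 1.95. Scaled to the median of the shared miRNAs, quantile-normalized or scaled over all miRNAs, it was 0.34 (1 smaller), 0.38 (6 smaller) and 0.38 (2 smaller). With normexp correction it was 0.25 (15 smaller). Of the 94 miRNAs, 40 had a smaller range than miR-26a without scaling and 32 in the authors' value table.

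**Figure D1:**
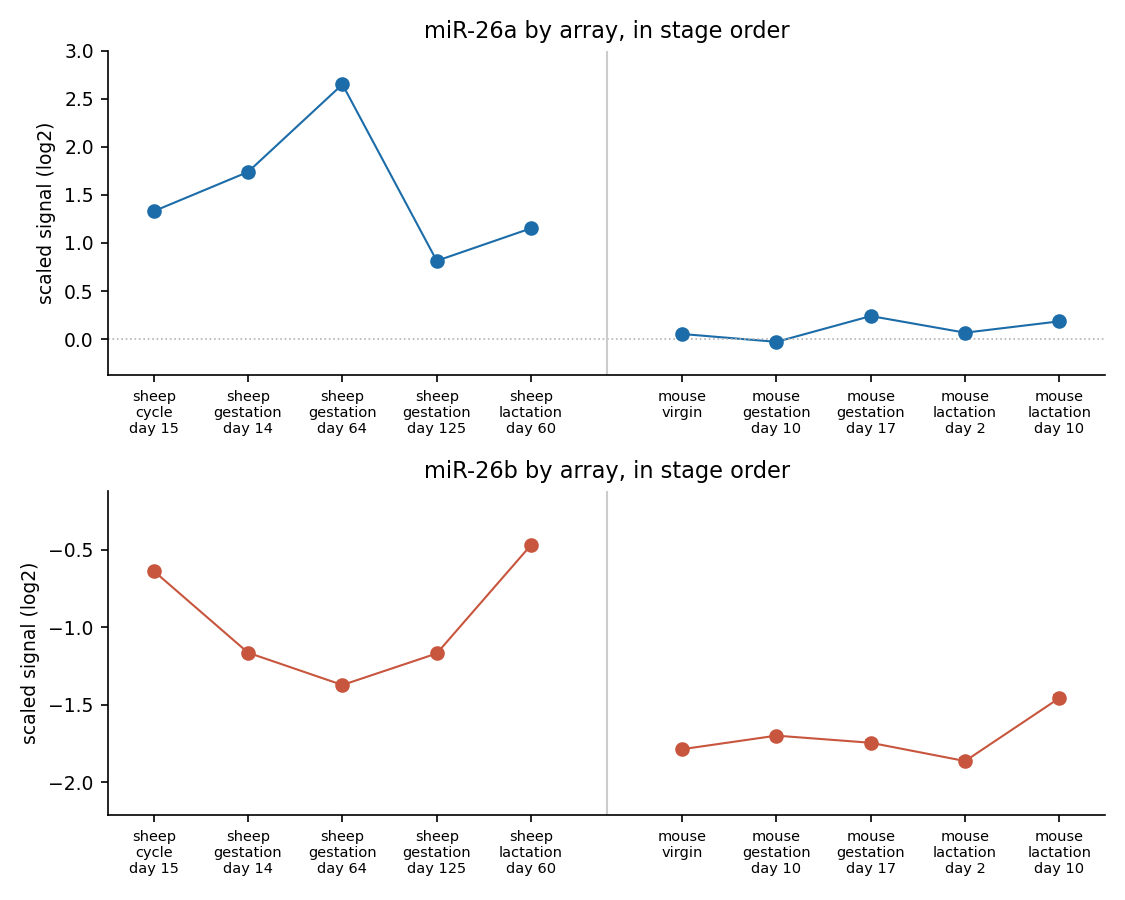
Scaled signal (log2; 0 is the 75th percentile of the array) of miR-26a (upper panel) and miR-26b (lower panel, other axis range) on each array in stage order, sheep on the left and mouse on the right. Bars, mostly hidden by the points, are the standard error over spots of 1 array. miR-26a peaks at 2.65 on sheep gestation day 64, where miR-26b has its lowest sheep level of -1.37, and mouse miR-26a stays between -0.03 and 0.24.

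miR-26b followed another course in sheep, low in gestation and higher on either side. Its scaled level was 0.643 in the cycle, 0.446 at gestation day 14, 0.386 at day 64, 0.445 at day 125 and 0.722 in lactation. After scaling, all 3 gestation levels lay below both the cycle and the lactation level, and the lowest fell on day 64, the array with the most miR-26a, but on day 14 when scaled over all miRNAs or to the median and on day 125 without scaling. The steps were -0.53 ± 0.01, -0.21 ± 0.01, 0.20 ± 0.01 and 0.70 ± 0.01 on the log2 scale, with errors over spots. Without scaling the signal was 1284 in the cycle, 817, 603 and 418 over gestation and 569 in lactation, so without scaling gestation days 14 and 64 lay above lactation and day 125 lay below day 64. The rank of miR-26b in signal was 34 in the cycle, 41, 45 and 41 over gestation and 32 in lactation.

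In mouse, miR-26b varied little until lactation day 10. Its scaled level was 0.290 in virgin mice, 0.308 at gestation day 10, 0.298 at gestation day 17, 0.275 at lactation day 2 and 0.365 at lactation day 10. The last of these was the highest mouse level, 0.41 ± 0.03 (error over spots) above lactation day 2 on the log2 scale, and it lay just below the lowest sheep level (-1.46 against -1.37). The range over the mouse arrays was 0.41, and 6 of the 94 shared miRNAs had a smaller one. Without scaling the range was 1.64 (25 smaller), in the authors' values it was 2.09 (38 smaller), over all miRNAs 0.64 (15 smaller) and with normexp correction 0.52 (31 smaller). The highest mouse array also depended on the scaling: lactation day 10 was the lowest without scaling, virgin was the highest in the authors' value table, and gestation day 10 was the highest when scaled over all miRNAs. Its rank in signal was between 52 and 59.

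Ordered by level, the 5 sheep arrays came first for both members, and the order of the sheep arrays differed between them. For miR-26a it ran gestation day 64, gestation day 14, cycle, lactation, gestation day 125, and for miR-26b lactation, cycle, gestation days 14, 125 and 64. For miR-26a the mouse arrays followed as gestation day 17, lactation day 10, lactation day 2, virgin and gestation day 10. For miR-26b they followed as lactation day 10, gestation day 10, gestation day 17, virgin and lactation day 2. Among neighbours in these orders, mouse lactation day 2 and virgin did not differ by more than 2 standard errors over spots for miR-26a (difference 0.01), nor did sheep gestation days 14 and 125 for miR-26b (difference 0.005). The spread between animals, which no array pair measures, is not included in that error.

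The signal of miR-26a over that of miR-26b was alike on 8 arrays and higher on the other 2. It was 3.91 in the sheep cycle, 7.48 at gestation day 14, 16.3 at day 64, 3.95 at day 125 and 3.08 in lactation. In mouse it was 3.58 in virgins, 3.18 and 3.96 in gestation, and 3.81 and 3.12 in lactation. The sheep cycle, gestation day 125 and lactation thus lay within or just below the mouse range, and only sheep gestation days 14 and 64 lay above it. A factor that scales a whole array cancels in this ratio. Because the probes differ in brightness, the ratio shows shifts between arrays and not how many molecules of one there are per molecule of the other. It was 14.7 at day 64 after normexp background correction and 15.5 after quantile normalization, where the other 8 arrays spanned 2.24 to 3.52 and 2.37 to 4.86. With normexp, sheep gestation day 125 (3.52) lay above the highest mouse array (3.39). With quantile normalization, sheep lactation (2.37) lay well below the lowest mouse array (3.19).

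**Figure D2:**
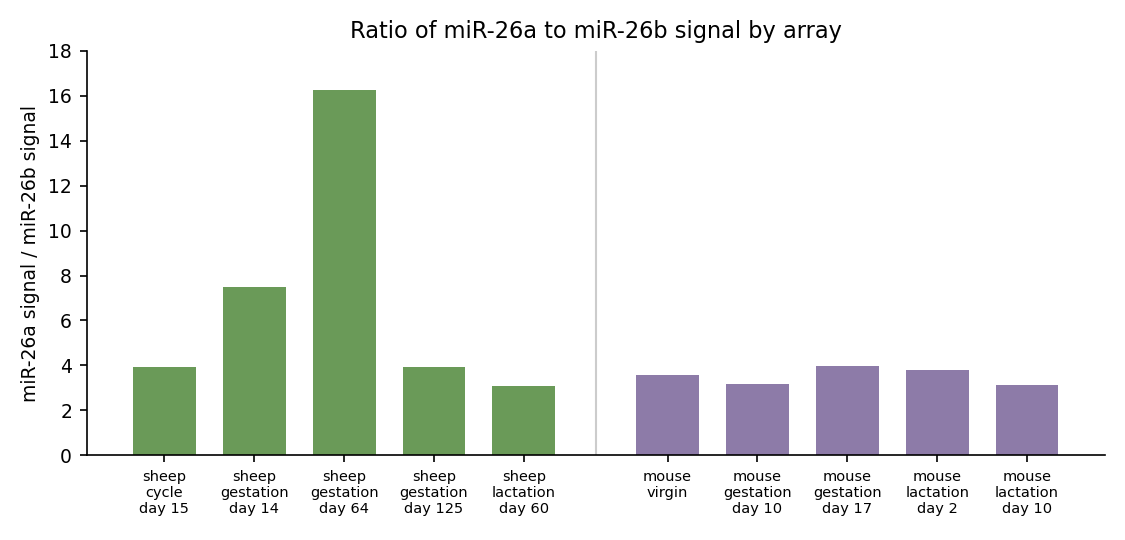
Signal of miR-26a divided by signal of miR-26b (linear axis from 0) on each of the 10 arrays in stage order, 1 bar per array with no replicate and hence no error bar. Sheep gestation days 14 and 64 reach 7.48 and 16.3, and the other 8 arrays lie between 3.08 and 3.96.

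Over the 5 arrays of each species, the log2 ratio was 2.50 ± 0.97 (SD) in sheep and 1.81 ± 0.15 in mouse. The difference of 0.69 did not pass an exact two-sided permutation test over arrays (p = 0.167, with 252 arrangements and a smallest possible p of 0.00794). Without sheep gestation days 14 and 64, a choice made after their values were seen, it was 0.05 (exact permutation p = 0.679). It passed with normexp correction (0.90, exact permutation p = 0.0317) and without the sheep lactation array (0.91, exact permutation p = 0.0238). Both stood unadjusted for the 2 comparisons of the ratio. From gestation to lactation, the log2 ratio changed by -0.60 (exact permutation within species, p = 0.333, smallest possible p 0.0417). That value rested on few arrays: it was -0.04 without sheep lactation, -0.35 without sheep gestation day 64, and -0.81 to -0.04 over all 10 single arrays left out.

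The probes of miR-26a shifted against each other on the same arrays. The longer-target probe gave 2.15 times the signal of the shorter one in the sheep cycle, 1.73 at gestation day 14, 1.42 at day 64, 2.11 at day 125 and 2.16 in lactation, and 2.07 to 2.20 in mouse. For miR-26b the same ratio was 1.73 to 2.08 over all 10 arrays. Both miR-26a probes were brighter at day 64 than at day 125, with mean signals of 8106 against 1061 for the shorter target and 11493 against 2241 for the longer one. The ratio of miR-26a to miR-26b was higher at day 64 for all 4 pairings of their probes. It was 18.4 against 3.57 in the cycle for the shorter targets and 15.0 against 4.09 for the longer ones. At day 64 the shift in miR-26a's probe ratio against its median on the other arrays was -0.56 on the log2 scale, the 9th lowest among 83 miRNAs with 2 probes. At day 14 it was -0.28, the 10th lowest. The part of the probes in the day 14 and day 64 levels was not tested.

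**Figure D3:**
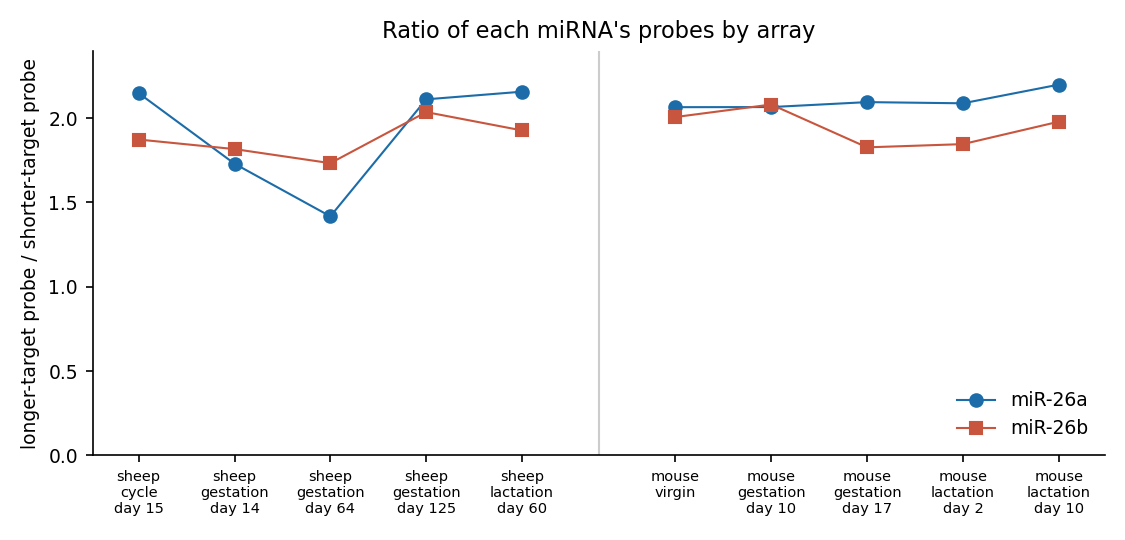
Signal of the longer-target probe divided by that of the shorter-target probe of the same miRNA, per array in stage order, for miR-26a (circles) and miR-26b (squares). The miR-26a ratio is 1.73 and 1.42 on sheep gestation days 14 and 64 and 2.07 to 2.20 in mouse.

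Across all 10 arrays both members were higher in sheep gland than in mouse gland. The mean log2 level of miR-26a was 1.54 ± 0.71 (SD, n = 5 arrays) in sheep and 0.10 ± 0.11 (n = 5) in mouse, and that of miR-26b was -0.96 ± 0.39 and -1.71 ± 0.15. In a limma model that took in the species and whether animals were not pregnant, in gestation or in lactation, miR-26a was higher by 1.39 ± 0.35 (standard error; 95% interval 0.54 to 2.23, 2.61-fold; adjusted p = 0.0319). miR-26b was higher by 0.82 ± 0.16 (interval 0.44 to 1.21, 1.77-fold; limma adjusted p = 0.0119). Over all 213 miRNAs tested, 21.6% passed in this comparison, 8.45% with higher levels in sheep, and 7.51% had all sheep arrays above all mouse arrays, as both members did. In bulk tissue, less RNA per cell and fewer cells of a type cannot be told apart. A difference in how the mouse probes match sheep miRNAs cannot be told apart from a species difference here either, and slide 2 held mouse arrays only.

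The call for miR-26a depended on single arrays. Leaving out single arrays took its difference from 1.15 to 1.58, and the limma adjusted p stayed under 0.05 in 2 of 10 cases. It was 0.0127 without sheep gestation day 125 and 0.0132 without day 64, and between 0.0602 and 0.0928 without any 1 of the other 8 arrays. Without gestation days 14 and 64 together, a choice made after their values were seen, the difference was 0.98 ± 0.13 (limma adjusted p = 0.0140). These were the 2 arrays with the highest miR-26a, so leaving them out narrows the spread, and this p-value adds no support to the call. miR-26b passed in all 10 cases, with a difference of 0.68 to 0.91. On slide 1 alone the differences were 1.28 (limma adjusted p = 0.236) for miR-26a and 0.83 (adjusted p = 0.0735) for miR-26b, with 3 mouse arrays. With slide as a term they were 1.25 (adjusted p = 0.159) and 0.86 (adjusted p = 0.050001). In the authors' value table the species overlapped for both members, and with normexp correction or scaling over all miRNAs they overlapped for miR-26b. Red cell miRNAs (miR-144, miR-451 and miR-486) also moved with species: their summed scaled level was 0.151 to 0.620 in sheep, with at most 2 of 3 detected, and 1.72 to 5.97 in mouse, with all 3 detected. Their part in the species difference was not tested.

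**Figure D4:**
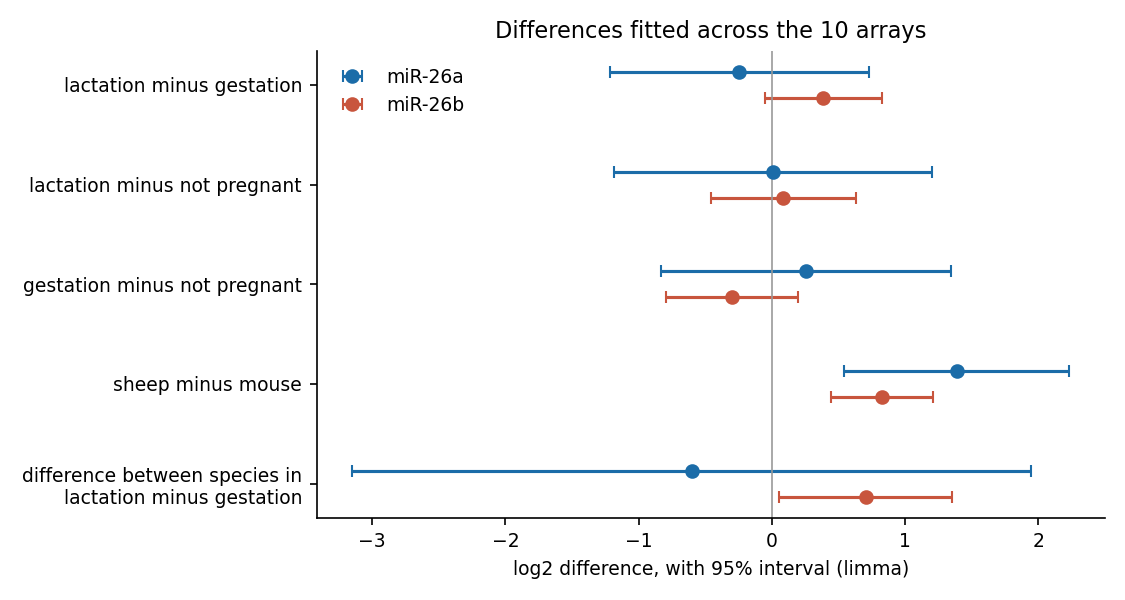
Log2 differences of miR-26a and miR-26b with 95% intervals from the limma models over the 10 arrays, 1 line per comparison. Only the intervals of sheep minus mouse for both members, and of the difference between species for miR-26b (0.05 to 1.35), lie off 0. The last of these rests on 1 sheep lactation array.

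No comparison of stage classes passed for either member by limma over the 10 arrays, where the lowest unadjusted p was 0.0769, for miR-26b from gestation to lactation. From gestation to lactation, where 2.82% of the 213 miRNAs passed (1.41% higher and 1.41% lower in lactation), miR-26a differed by -0.25 ± 0.41 (95% interval -1.22 to 0.73; limma adjusted p = 0.926) and miR-26b by 0.39 ± 0.18 (interval -0.06 to 0.83; adjusted p = 0.349). From not pregnant to lactation, where 3.76% passed, the differences were 0.01 ± 0.50 and 0.09 ± 0.23 (limma adjusted p = 1 and 0.995). From not pregnant to gestation, where 0.469% passed, they were 0.25 ± 0.45 and -0.30 ± 0.21 (limma adjusted p = 1 for both). Over all miRNAs tested the median difference was 0.00 in each of these. That median depended on the floor set for low values: with a floor 4 times lower it was -0.17, -0.05 and 0.11, in the same order. The intervals of miR-26a include a change of more than 2-fold in either direction from not pregnant to lactation, so these data set only a wide limit on its change.

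The species were also compared in their change from gestation to lactation. In sheep alone the change was -0.58 for miR-26a and 0.77 for miR-26b, and in mouse alone 0.02 and 0.06. From not pregnant to gestation, miR-26b changed by -0.60 in sheep alone. Sheep lactation and the sheep cycle are 1 array each, so the spread within either was not measured. The difference between the species also rests on that 1 sheep lactation array. The difference between the species was -0.60 ± 0.95 for miR-26a (limma adjusted p = 1) and 0.70 ± 0.24 for miR-26b (95% interval 0.05 to 1.35; adjusted p = 0.527), in a comparison in which 0.939% of miRNAs passed. Leaving out sheep gestation days 14 and 64 was a choice made after their values were seen. Without them, the miR-26a change from gestation to lactation turned to 0.13 ± 0.14 (limma adjusted p = 0.753). The difference between the species then turned to 0.32, on 1 sheep array each in gestation and lactation.

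Markers of other cell types moved with stage beside the miR-26 levels. In sheep, the epithelial sum was lowest (2.92) at gestation day 64, where miR-26a was highest, and highest (11.4) at day 125, where miR-26a was lowest. In mouse the same sum was 1.68 in virgins and 14.1 at lactation day 10, while miR-26a stayed between 0.980 and 1.18. The fibroblast and smooth muscle miRNAs on the array, 5 in number and all detected in sheep, summed to 3.00, 2.72, 2.78, 1.22 and 0.832 on the sheep arrays in stage order, and to 2.66 in virgin mice and 0.659 at mouse lactation day 10. In mouse 3 to 5 of them were detected. Leukocyte miRNAs summed to 0.878 in the sheep cycle, 0.755 to 1.09 in sheep gestation and 0.238 in sheep lactation. Of these 5, 4 were detected in the cycle, 3 to 5 in gestation and 2 in lactation. Endothelial ones summed to 1.13 to 2.58 in sheep. Striated muscle miRNAs, of which 0 to 4 of 4 were detected in sheep, summed to at most 0.0926 there. They summed to 1.94 in virgin mice and 0.753 at mouse gestation day 17. The part of cell makeup in the miR-26 levels was not tested.

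The miRNA whose course was most like that of miR-26a was miR-101a, which also targets EZH2. Likeness was Pearson's r of log2 levels over the 10 arrays, among the 94 miRNAs detected on all of them, and is given as a description, since all miRNAs on an array share its RNA, scaling and depth. It was 0.976 for miR-101a, 0.886 for miR-30d, 0.853 for miR-27b, 0.846 for miR-140* and 0.844 for miR-29c. After each species' mean was subtracted, it was 0.939 for miR-101a, 0.914 for miR-140*, 0.899 for miR-30d, 0.882 for miR-1224 and 0.871 for miR-712, which lay at the floor of -5.11 on all arrays but sheep gestation day 64. The log2 level of miR-101a was -1.66, -1.62, -0.51, -2.55 and -1.97 on the sheep arrays and -3.27, -3.19, -2.93, -3.01 and -2.54 on the mouse arrays, in stage order. Like miR-26a, it was highest at sheep gestation day 64 and lowest in sheep at day 125. In mouse the courses differed. From virgin to lactation day 10, miR-101a rose from -3.27 to -2.54 and miR-140* fell from -3.99 to -4.79, while miR-26a stayed between -0.03 and 0.24. How far the likeness rests on sheep gestation day 64 was not tested. miR-26b itself ranked 25 of the shared miRNAs by likeness to miR-26a (r = 0.542), and 74 with r = -0.49 after the species means were subtracted.

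**Figure D5:**
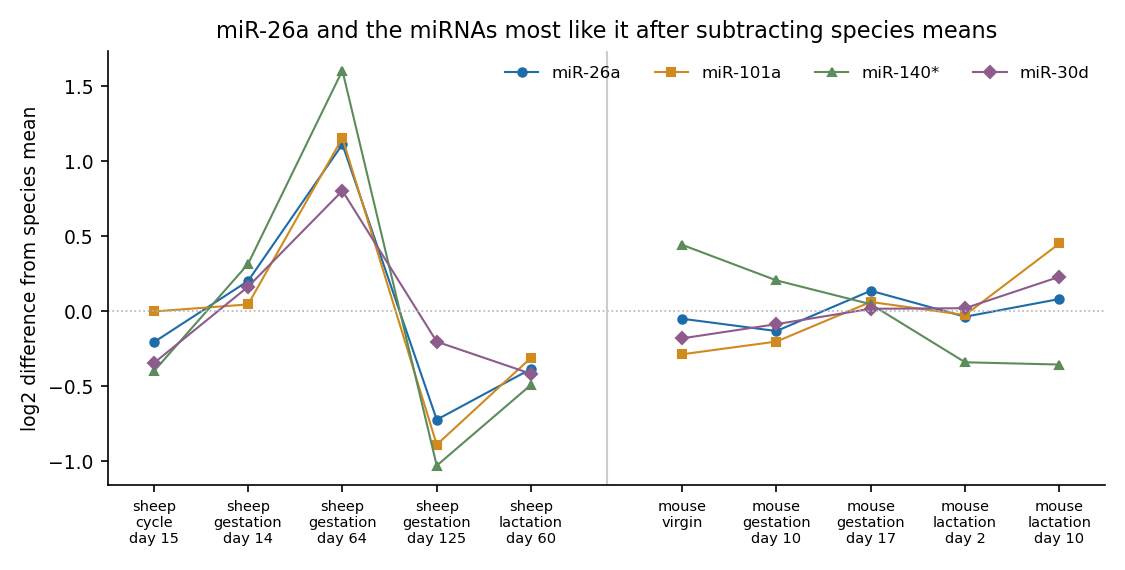
Log2 level minus the mean of its own species, per array in stage order, for miR-26a and the 3 miRNAs most like it after the species means were subtracted (miR-101a, r = 0.939; miR-140*, r = 0.914; miR-30d, r = 0.899; each over 10 arrays). All 4 are highest in sheep on gestation day 64.

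miR-26b was most like miR-151-5p (r = 0.859), let-7a (0.834), miR-192 (0.785), miR-23b (0.783) and miR-29c (0.740) over the 10 arrays. After the species means were subtracted the order was miR-192 (0.749), miR-107 (0.744), let-7g (0.603), miR-15a (0.598) and let-7f (0.557). miR-107 is encoded in a gene for pantothenate kinase, the first enzyme of coenzyme A synthesis. Its log2 level was -1.68, -2.04, -2.54, -1.58 and -0.76 on the sheep arrays and -1.19, -1.25, -1.61, -0.76 and -0.07 on the mouse arrays, in stage order. Scaled to the percentile, both miRNAs had their lowest sheep level at gestation day 64 and their highest level of each species in lactation. For miR-26b these places depended on the scaling, as given above. Of the miRNAs most like it, miR-192 lay at the floor of -5.11 on 4 mouse arrays.

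Other miRNAs that share the targets or roles of the family were listed from general knowledge. Of the 6 other EZH2-targeting miRNAs, 4 were detected on enough arrays to test. Of these, 0 passed from gestation to lactation by limma (1 at an unadjusted p under 0.05), where 2.82% of all miRNAs passed. Their median difference was -0.03, against 0.00 over all miRNAs at the same floor. With a floor 4 times lower the median over all miRNAs was -0.17, and that of the list is not given here. Between species 0 passed by limma (1 at an unadjusted p under 0.05), where 21.6% of all miRNAs passed, with a median of 0.03. miR-101a differed by 1.33 ± 0.40 between sheep and mouse (limma adjusted p = 0.0612), with overlapping species, and by 0.01 ± 0.47 from gestation to lactation (adjusted p = 1). miR-214, abundant in stromal cells, was lower in lactation than in animals that were not pregnant (-2.99 ± 0.58, limma adjusted p = 0.0434), where 2.82% of all miRNAs passed with lower levels. Of the 3 lactation arrays, 2 lay at the floor of -5.11 and the third at -5.09, so the size of this difference is set by the floor (it was -3.80 with a floor 4 times lower). The call held in 2 of 10 fits with 1 array left out and in 2 of 14 other alternatives. Its difference from gestation to lactation was -2.06 ± 0.47 (limma adjusted p = 0.0759). Values for miR-101b (-0.07 ± 0.17 from gestation to lactation), which lay at the floor on 8 arrays, and miR-98 (0.14 ± 0.41) did not pass.

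All 9 adipogenesis-associated miRNAs were tested. Between species, 3 of the 9 were higher in sheep, by at most 0.44, and 0 of them passed. Another 4 of the 9 passed, all lower in sheep, whereas miR-26a and miR-26b were higher there (13.1% of all miRNAs passed with lower levels). They were miR-193b (-2.70 ± 0.43, limma adjusted p = 0.00465), miR-365 (-1.45 ± 0.22, adjusted p = 0.00441) and miR-378 (-2.41 ± 0.44, adjusted p = 0.00903), all linked to brown fat or fat metabolism, and miR-103 (-0.95 ± 0.15, adjusted p = 0.00500), a close relative of miR-107. miR-378 lay at the floor on 2 of 5 sheep arrays, and its difference was -2.77 with a floor 4 times lower. Each of the 4 calls held with any 1 array left out. Of 12 other alternatives, the call held in 11 for miR-193b, in 10 for miR-365 and in 8 each for miR-378 and miR-103. The sizes depended on the background: with normexp correction they were -1.16 for miR-193b, -0.15 for miR-365, -0.31 for miR-378 and -0.84 for miR-103. Without scaling the miR-103 difference turned to 0.19. From gestation to lactation 1 of 9 passed, against 1.41% of all miRNAs with higher levels: miR-103 rose by 1.01 ± 0.18 (limma adjusted p = 0.0486). That call held in 1 of 10 fits with 1 array left out and in 1 of 14 other alternatives, and without scaling the difference turned to -0.09. miR-107 differed by 1.13 ± 0.26 (adjusted p = 0.0759), miR-30a by 0.48 ± 0.65 (adjusted p = 0.869) and miR-365 by 0.42 ± 0.26 (adjusted p = 0.503). The median of the list from gestation to lactation was 0.14, against 0.00 over all miRNAs at the same floor. With a floor 4 times lower the median over all miRNAs was -0.17, and that of the list is not given here.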

How the data were processed

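Total RNA (100 ng, RNA integrity number of 6 or more, per the labels) was measured on 10 arrays. The deposited scanner files hold linear intensity values, background-subtracted and detrended within each array, per the file headers, made with Agilent Feature Extraction 10.5.1.1 per the file headers and 9.5 per the submitters' processing notes. Detection and outlier flags came from the same software. The authors' value table is a linear intensity that equalled the total signal per miRNA times 1 constant per array, within 0.1% for 98.65% or more of the miRNAs whose total signal exceeded 50. The medians of its columns were -0.603, 0.303, 0.26, -3.94 and -2.80 for sheep and -11.4, -5.23, 0.76, -2.35 and -11.6 for mouse, in stage order, and how it was scaled or centred is unknown.

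Outlier spots were left out, spots averaged per probe and probes per miRNA, and each array divided by its 75th percentile over the 94 shared miRNAs. Values under 0.029 (-5.11 on the log2 scale), the highest over arrays of the 5th percentile of scaled values of detected miRNAs, were set to that floor. Detection on 3 or more arrays left 213 miRNAs, which were tested with limma 3.58.1 in R 4.3.3 (two-sided, Benjamini-Hochberg over all 213, threshold 0.05), with species and stage class as terms and 6 residual degrees of freedom. A model of 6 group means, with 4, tested the difference between species in the change to lactation. On data simulated from the arrays the fit recovered the largest known changes added between species, far larger than those of miR-26a and miR-26b. Smaller changes, some close in size to those of the members, were also added, and their recovery is not given here. How well changes of the members' size are found is therefore not shown. Stage comparisons, the difference between species in the change to lactation and the ratio tests were not simulated. Ratios were tested by exact permutation over arrays. P-values rest on the spread between days and species, and the number of arrays limits the precision. Both members, the passenger strand, the 5 miRNAs most like each member, the listed miRNAs that passed and up to 4 per list with the largest change to lactation were named. Members and lists were chosen with earlier results of these data known. 1 further list of miRNAs is not reported here. Alternatives covered scaling, background, floor, filter, probes, the authors' table, slide, species and each array left out. Leaving out sheep gestation days 14 and 64 together was chosen after their values were seen.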

Additional observations from a re-analysis of the deposited data

Results flagged for a closer look

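Among 10 groups of 5 arrays checked for a single array that stands apart (members, their ratio and their probe ratios, in each species), 1 was met: the log2 ratio of the miR-26a probes was 1.14 at mouse lactation day 10, the highest of the mouse arrays, by a gap of over 0.710 of the group's range. Chance marks about 1 in 20 groups in this way. The whole mouse range of the ratio was 2.07 to 2.20, and the array had the lowest signal of the 10.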

How the results depend on the processing

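No paired analysis was possible because no replicate or animal number in the labels links the groups. Sheep minus mouse, miR-26a lost its call with normexp (1.33, limma adjusted p = 0.0902), the authors' table (1.34, 0.102), no filter (1.39, 0.114), slide as a term (1.25, 0.159) and slide 1 alone (1.28, 0.236), and miR-26b with the percentile over all miRNAs (1.08, 0.0564), normexp (0.57, 0.0644), the authors' table (0.78, 0.424), slide as a term (0.86, 0.050001) and slide 1 alone (0.83, 0.0735). Both kept the sign under all alternatives. Leaving out single arrays gave 1.15 to 1.58 for miR-26a and 0.68 to 0.91 for miR-26b.

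Differences that had not passed changed sign as follows. Lactation minus gestation turned to 0.055 (authors' table), 0.020 (mouse alone) and 0.13 (without sheep gestation days 14 and 64) for miR-26a and to -0.71 (no scaling) for miR-26b. Lactation minus not pregnant turned for miR-26a to -0.031 (percentile over all), -0.25 (quantile), -1.17 (no scaling), -0.63 (authors' table), -0.086 (median), -0.16 (slide as a term), -0.012 (slide 1), -0.18 (sheep alone) and -0.060 (without days 14 and 64), with -0.082 to 0.20 on leaving out arrays. For miR-26b it turned to -1.09 (no scaling), -0.55 (authors' table), -0.0069 (median) and -0.072 (slide 1), with -0.13 to 0.28 on leaving out arrays. Gestation minus not pregnant turned for miR-26a to -0.68 (authors' table) and -0.19 (without days 14 and 64), with -0.00062 to 0.46 on leaving out arrays, and for miR-26b to 0.064 (mouse alone). The difference between species in lactation minus gestation turned for miR-26a to 0.27 (percentile over all) and 0.32 (without days 14 and 64). The log2 ratio between species became 0.90 with normexp (exact permutation p = 0.0317), and 0.31 to 0.91 on leaving out arrays. The causes were not tested.

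With no scaling the median over all miRNAs moved by -0.66 from gestation to lactation, -0.78 from not pregnant to lactation and 0.69 between species, and relative to the last miR-26a and miR-26b stood at 1.84 and 1.28. Counts of calls moved from 6 to between 0 and 24 (gestation to lactation), from 8 to between 0 and 29 (not pregnant to lactation), from 1 to between 0 and 7 (not pregnant to gestation), from 46 to between 14 and 95 (species) and from 2 to between 0 and 21 (difference between species). Species calls were 18 higher and 28 lower, but 69 and 18 without scaling, 23 and 23 over all miRNAs and 24 and 23 with quantile normalization.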
